A study of Saccharomyces cerevisiae with 8 samples.

Results

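The genes described here are 10 of the 6002 protein-coding nuclear genes of budding yeast, and they serve mating type a and its pheromone, a-factor. MFA1 and MFA2 encode a-factor, AXL1, STE14 and STE24 encode enzymes that mature it, and STE6 encodes its exporter. STE2, BAR1, AGA2 and ASG7 complete the set with a receptor, a secreted protease, an adhesion subunit and a signalling inhibitor. The members were chosen by name, with the presence of their start peaks in these libraries already known, so presence and rank are given as descriptions with no test. Position and width of the peaks were not used in that choice and were tested across all genes that allowed it.

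The strain of every library was BY4741, a haploid laboratory yeast of mating type a that is defective in the genes HIS3, LEU2, MET17 and URA3. CAGE (cap analysis of gene expression), which sequences the capped 5′ ends of RNA, was done on 4 groups of 2 libraries. The groups were synHPRT1R on a yeast artificial chromosome (YAC), synHPRT1R integrated on chromosome XI, synHPRT1 on a YAC and synHPRT1 integrated on chromosome XI. The insert synHPRT1 is human HPRT1 locus DNA made synthetically, and synHPRT1R is its reversed form. The study asked whether yeast transcribes these inserts, and how that compares with its own genes. All 8 libraries thus carry a foreign insert, and none comes from BY4741 without one. YAC strains grew in SC-Leu medium and the integrated strains in YPD medium, so context and medium cannot be told apart. Growth was at 30 °C for 6 h, with an OD of 0.1 at the start and near 0.6 at the end. Whether replicates were separate cultures is not stated, and p-values therefore reflect the spread among these 8 libraries alone, which may be technical.

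Haploid yeast cells are of mating type a or alpha, and each type transcribes its own set of mating genes. In a cells the factor Mcm1 activates the a-specific genes, and in alpha cells the repressor alpha2 binds beside Mcm1 and recruits Tup1 and Cyc8 to silence the same genes. The a-factor precursor is farnesylated on a C-terminal CAAX box, trimmed by Ste24 and Axl1, methylated by Ste14 and carried out of the cell by Ste6. STE14 and STE24 are expressed in all cell types, and AXL1 is expressed in haploid cells of both mating types. The genome sequence used here comes from an alpha strain, so its MAT locus holds alpha genes that the MAT locus of BY4741 lacks.

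Sequence upstream of the genes is shown first, as a description. The letters searched are those of Mcm1 and alpha2, which act on a-specific genes as told above. A match in the a-specific members was therefore likely beforehand and is no test of the set. Motifs were searched on both strands from 500 bp upstream to 50 bp downstream of the gene's 5′ end, which is the start codon in this annotation. An Mcm1 core, CCNNNNNNGG, with an alpha2 site, CATGTAA, within 5 bases of it occurred in 14 of 6002 such windows, a share of 0.233%. All 7 a-specific members were among the 14, and AXL1, STE14 and STE24 were not. The 34-base stretches around these cores (sacCer3, gene strand, 5′ to 3′) follow, with the core and any alpha2 site in capitals:
MFA1: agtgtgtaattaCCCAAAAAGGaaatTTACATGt
MFA2: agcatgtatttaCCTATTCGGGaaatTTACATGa
STE6: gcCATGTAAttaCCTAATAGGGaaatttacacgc
STE2: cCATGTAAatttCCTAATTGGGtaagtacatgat
BAR1: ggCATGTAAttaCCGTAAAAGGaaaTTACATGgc
AGA2: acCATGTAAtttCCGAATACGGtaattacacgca
ASG7: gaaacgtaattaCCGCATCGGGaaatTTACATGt

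These stretches lie at chrIV:1384940-1384973 (plus strand, MFA1), chrXIV:352161-352194 (plus, MFA2), chrXI:46476-46509 (minus, STE6), chrVI:82350-82383 (plus, STE2), chrIX:322076-322109 (plus, BAR1), chrVII:437100-437133 (minus, AGA2) and chrX:101904-101937 (minus, ASG7). BAR1 was the member with an exact alpha2 site on both sides of the core, 3 bases away on each. The other 6 had 1 exact site, at 3 or 4 bases from the core. The first base of the core stood 146 bp upstream of the start codon in ASG7 and 288 bp upstream in AGA2, with the other members between. The pair was looked for in this wider window after the data were seen. In the window of 250 bp upstream to 50 bp downstream it occurred in 9 promoters (0.15%), 5 of them members.

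The 7 windows outside the member set that held the pair belonged to BET3, GYP8, MOG1, NBA1, NUF2, TDA10 and YDL129W. Windows of neighbouring genes can overlap, so these windows need not each hold a site of their own, or one apart from those of members. Start peaks, defined below by overlap with the gene's 5′ end, were listed for NBA1 in 8 libraries and for BET3 in 0. None of the printed cores and alpha2 sites overlapped another motif searched. A match is a run of letters, not a bound site. The motifs were also counted singly. In the 300-base windows, the core occurred in 29.2% of promoters and in 6 members, and the alpha2 letters in 3.7% and in 8 members. The pheromone response element TGAAACA, to which the pheromone-activated factor Ste12 binds, occurred in 7.5% of promoters and in 7 members. The TATA element TATAAA occurred in 45.2% of promoters and in 8 members.

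**Figure D1:**
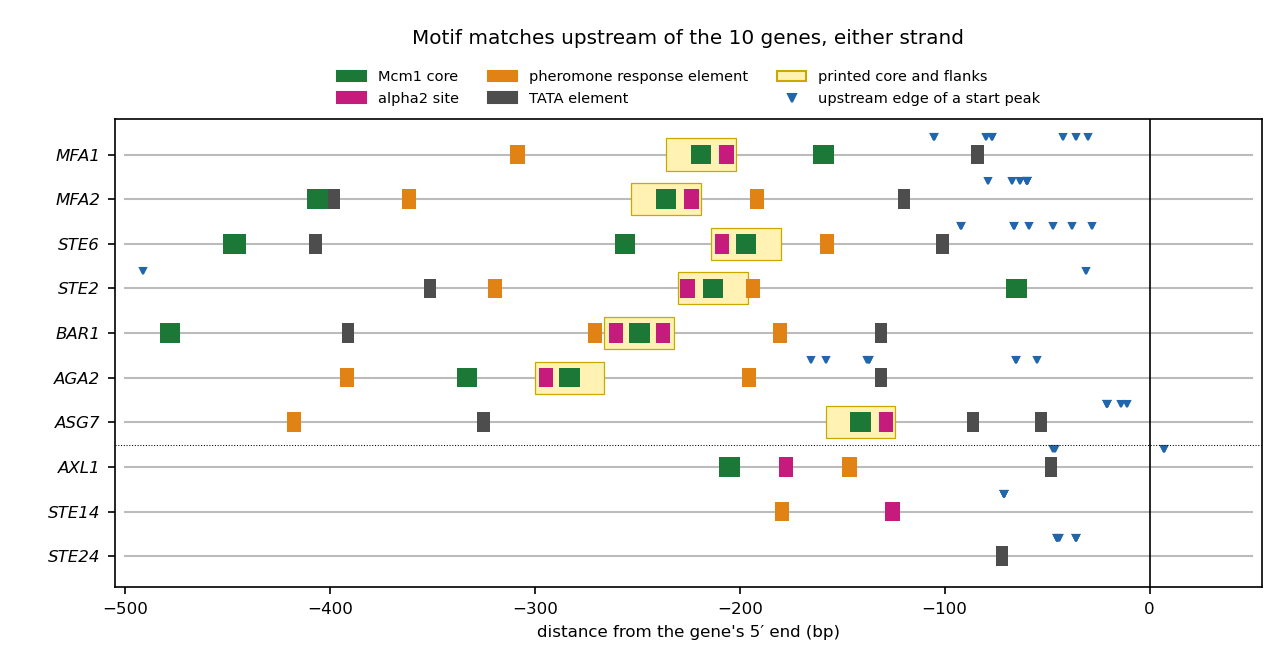
Positions of motif matches from 500 bp upstream to 50 bp downstream of the start codon (x axis, bp) for the 10 genes, the 7 a-specific ones above the dotted line. Yellow boxes are the 34-base stretches printed in the text, and blue triangles are the upstream edges of start peaks in single libraries. Each a-specific gene has a core with an alpha2 site within 5 bases, at 146 to 288 bp upstream, and AXL1, STE14 and STE24 have none.

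A start peak was a peak on the gene's strand that overlapped a window around its 5′ end, 300 bp on the upstream and 100 bp on the downstream side, and where several did, the one with the highest fold was taken. Libraries held 2995 to 3367 peaks on the 16 nuclear chromosomes, and start peaks were found for 2393 to 2665 genes (39.9% to 44.4%). Depth is unknown as a count, since the lists give no read totals. Signal is given as summit pileup, the tags stacked over the peak's summit, solved from the authors' fold and p-value. It is also given relative to the background of its list, which lay between 41.0 and 52.7 tags in plus-strand lists and between 67.0 and 94.8 in minus-strand lists. CAGE counts 5′ ends, so pileups were not divided by gene length. Fewer cells that express a gene and less RNA per cell cannot be told apart in these cultures.

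Of the 10 members, 5 had a start peak in all 8 libraries: MFA1, MFA2, STE24, STE6 and AGA2. Of all 6002 genes, 20.6% had one in every library. Where the summit itself had to lie inside the window, 2 members, MFA1 and AGA2, had one in every library, against 12.9% of all genes. ASG7 had one in 6 libraries, AXL1 in 4, STE14 in 4, STE2 in 2 and BAR1 in 0, against 33.8% of all genes with none in any library. Of 80 member and library combinations, 56 held a start peak. The members per library numbered 6 and 6 in synHPRT1R YAC, 7 and 8 in synHPRT1R integrated, 8 and 6 in synHPRT1 YAC and 8 and 7 in synHPRT1 integrated. These groups overlapped, with 6.5 ± 1.0 members in YAC libraries against 7.5 ± 0.58 in integrated ones, and 6.75 ± 0.96 in synHPRT1R and 7.25 ± 0.96 in synHPRT1 libraries (SD, n = 4 each). No member had a peak on the opposite strand in its window.

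**Figure D2:**
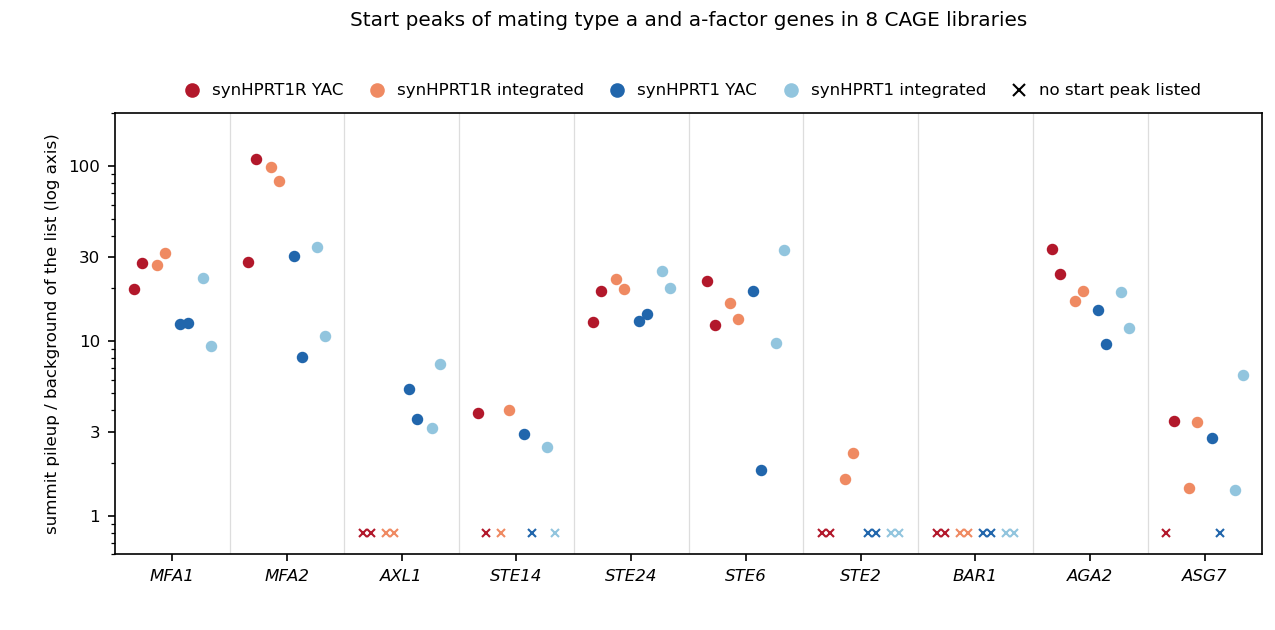
Summit pileup divided by the background of its list (y axis, log scale) for each gene, with 1 point per library and the libraries grouped by sequence and context. Crosses mark libraries with no start peak listed. MFA1, MFA2, STE24, STE6 and AGA2 have points in all 8 libraries, AXL1 has points in the 4 synHPRT1 libraries, and BAR1 has none.

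MFA2 had the highest median rank of the set by fold, −log10 p and pileup. MFA1 and AGA2 came next, MFA1 higher by fold and AGA2 higher by −log10 p and by pileup. MFA1 (YDR461W, chrIV:1385176-1385286, plus strand) had pileups of 1039 and 1146 tags in synHPRT1R YAC, 1384 and 1484 in synHPRT1R integrated, 594 and 544 in synHPRT1 YAC, and 1147 and 438 in synHPRT1 integrated libraries. Relative to background these were 9.37 to 31.8 times, and the highest library stood 3.4 times above the lowest. Values averaged 26.7 ± 5.06 times background in synHPRT1R and 14.3 ± 5.94 in synHPRT1 libraries (SD, n = 4 each). The sequences overlapped through 1 library, synHPRT1 integrated replicate 1, at 23.0 times against 19.7 in the lowest synHPRT1R library.

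MFA2 (YNL145W, chrXIV:352414-352530, plus strand) had pileups of 1489 and 4478 tags in synHPRT1R YAC, 5003 and 3846 in synHPRT1R integrated, 1459 and 347 in synHPRT1 YAC, and 1727 and 498 in synHPRT1 integrated libraries. The highest library stood 13.6 times above the lowest relative to background, where the median over the 1239 genes present in all 8 libraries was 2.88 times. In 3 synHPRT1R libraries MFA2 stood 82.5 to 109 times above background, and the remaining one, at 28.3, lay among the synHPRT1 libraries, at 8.04 to 34.6. Replicates of MFA2 differed 3.86 times in synHPRT1R YAC, 3.79 times in synHPRT1 YAC and 3.25 times in synHPRT1 integrated but 1.19 times in synHPRT1R integrated, against a median of 1.36 and a 90th percentile of 2.59 over all replicate pairs of the 1239 genes. Relative to background, 1.94% of the 1239 genes had no overlap between synHPRT1R and synHPRT1 libraries, and no member was among them.

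By fold, MFA2 ranked at a median percentile of 88.7 among the peaks of its list and MFA1 at 81.8, where the median of the 1239 genes was 77.8. The ranges were 59.7 to 96.4 for MFA2 and 63.7 to 86.5 for MFA1, so that the order of the 2 genes does not stand out from the spread over libraries. The fold has a ceiling just under 50 in these lists, and MFA2 came near it at 44.8, 47.4 and 46.6 in the 3 strongest libraries.

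The coding sequences of both genes lay wholly inside the start peak in every library and are short, 111 bases for MFA1 and 117 for MFA2. They are printed because the precursors end in the same CAAX box, whose 4 codons are in capitals (RefSeq, sacCer3 build, gene strand, from start to stop codon):
MFA1: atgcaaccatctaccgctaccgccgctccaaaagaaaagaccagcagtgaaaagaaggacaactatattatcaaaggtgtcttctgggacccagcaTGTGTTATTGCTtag
MFA2: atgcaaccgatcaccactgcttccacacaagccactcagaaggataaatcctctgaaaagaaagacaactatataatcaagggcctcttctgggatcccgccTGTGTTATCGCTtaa
Over the last 48 bases, stop codon included, 39 were equal between the genes, and 15 of the 16 codons stood for the same residue or stop. The 4 codons of the CAAX box encoded the same residues in both.

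The processing enzymes showed more varied peaks. STE24 (YJR117W, chrX:642007-643368, plus strand) encodes a membrane protease that cuts the precursor at both ends. Its pileups were 671 and 790 tags in synHPRT1R YAC, 1149 and 917 in synHPRT1R integrated, 625 and 613 in synHPRT1 YAC, and 1251 and 932 in synHPRT1 integrated libraries. Every integrated library was above every YAC library. Relative to background, STE24 stood at 14.8 ± 3.04 times in YAC libraries and 21.8 ± 2.52 times in integrated ones (SD, n = 4 each), again with no overlap, as for 10.9% of the 1239 genes. The nearest pair was 19.3 in YAC and 19.7 in integrated libraries. The fold, which is set against the local background, did overlap, at 6.1 to 7.6 in YAC and 6.0 to 9.5 in integrated libraries. Its local background was raised to between 89.7 and 192 tags, so its median percentile was 57.0 by fold, 72.1 by −log10 p and 79.3 by pileup.

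The summit of STE24 also differed in place between contexts. It lay 62 and 140 bp downstream of the start codon in synHPRT1R YAC, 12 and 48 in synHPRT1R integrated, 97 and 91 in synHPRT1 YAC, and 11 and 13 in synHPRT1 integrated libraries. The means were 97.5 ± 32.2 bp in YAC libraries and 21.0 ± 18.0 bp in integrated ones (SD, n = 4 each). The contexts did not overlap, which held for 3.71% of the 1239 genes between YAC and integrated libraries. The difference in limma, 76.5 ± 17.5 bp (SE), had an unadjusted p of 0.0037 and missed the threshold after Benjamini-Hochberg adjustment over 1239 genes, with an adjusted p of 0.716. The upstream edge of the same peak stayed between 45 and 36 bp upstream in all 8 libraries, and its width between 206 and 223 bp. The pileup of this peak differed between the same libraries, and its part in the place of the summit was not tested.

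AXL1 (YPR122W, chrXVI:782045-785671, plus strand) encodes the metalloprotease that makes the last N-terminal cut of a-factor and that also guides axial budding. Its start peak had 255 and 155 tags in synHPRT1 YAC and 158 and 346 in synHPRT1 integrated libraries, and none was listed in the 4 synHPRT1R libraries. Of all 6002 genes 4, or 0.0666%, were present in all synHPRT1 and no synHPRT1R libraries, the others being TAX4, TRI1 and TRM13. The AXL1 peaks were modest, 3.16 to 7.40 times background, and the weakest peaks of the plus-strand lists of the synHPRT1R libraries held 61 to 75 tags. A further AXL1 peak of 106 tags in synHPRT1R YAC replicate 2 began 133 bp downstream of the start codon, past the end of the window. With a window to 200 bp downstream, added after the data were seen, AXL1 had a start peak in 5 libraries and the split by sequence was no longer complete. Where AXL1 peaks were listed, their upstream edge lay 47 and 46 bp upstream of the start codon in synHPRT1 YAC libraries and 7 bp downstream of it in both synHPRT1 integrated libraries.

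STE14 (YDR410C, chrIV:1292372-1293091, minus strand) encodes the methyltransferase that acts last on the a-factor C terminus. It had a start peak in 1 library of each group, with 365 tags in synHPRT1R YAC replicate 1, 285 in synHPRT1R integrated replicate 2, 252 in synHPRT1 YAC replicate 1 and 195 in synHPRT1 integrated replicate 1. Presence thus split every replicate pair and followed neither sequence nor context. MAG1 was the other gene with the same presence over the 8 libraries. All 4 STE14 peaks began 71 bp upstream of the start codon, and they stood 2.46 to 4.03 times above background.

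STE6 (YKL209C, chrXI:42423-46295, minus strand) encodes the ATP-driven a-factor exporter and lies on the chromosome that carries the insert in integrated strains. Its pileups were 2093 and 828 tags in synHPRT1R YAC, 1307 and 941 in synHPRT1R integrated, 1663 and 143 in synHPRT1 YAC, and 768 and 2464 in synHPRT1 integrated libraries. The groups overlapped throughout. The replicates of synHPRT1 YAC differed 10.5 times relative to background and those of synHPRT1 integrated 3.4 times, and the highest library stood 18.0 times above the lowest. The low value, 1.83 times background in synHPRT1 YAC replicate 2, put STE6 at percentile 13.6 there, against a median of 80.3. In that library MFA2 and AGA2 also had their lowest values relative to background, while MFA1 and STE24 had lower ones elsewhere, and no start peak was listed for ASG7 or STE14. Averages were 13.9 ± 9.02 times background in YAC libraries and 18.1 ± 10.3 in integrated ones (SD, n = 4 each).

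Of the surface proteins, AGA2 was the one seen in every library. AGA2 (YGL032C, chrVII:436570-436833, minus strand) encodes the binding subunit of a-agglutinin, which joins cells of opposite mating type. Its pileups were 3186 and 1618 tags in synHPRT1R YAC, 1345 and 1363 in synHPRT1R integrated, 1286 and 752 in synHPRT1 YAC, and 1505 and 882 in synHPRT1 integrated libraries. Relative to background AGA2 averaged 23.5 ± 7.42 times in synHPRT1R and 13.8 ± 4.06 times in synHPRT1 libraries (SD, n = 4 each), with overlap, and its median percentile was 81.3. AGA2 peaks were the widest of the set, 207 to 314 bp with a median of 295, where the median of the 1239 genes was 231.5 bp. They also began farthest upstream among the members present in all 8 libraries, at a median of 137 bp before the start codon. Their upstream edges fell into 2 sets, 165 to 137 bp upstream in 5 libraries and 65 to 55 bp in 3, and each set drew on both sequences and both contexts. All 3 libraries of the shorter set were replicate 2 of their group, and the longer set held every replicate 1 library and synHPRT1R YAC replicate 2.

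STE2 (YFL026W, chrVI:82580-83875, plus strand) encodes the receptor for alpha-factor, the pheromone of the other mating type. Start peaks were listed in the synHPRT1R integrated libraries, with 82 and 106 tags, and in no other library. Both were near the weakest listed peaks, which held 73 and 68 tags in those lists. The peak of 82 tags reached the window with 9 bp and had its summit 391 bp upstream of the start codon, while the peak of 106 tags had its summit 69 bp downstream. With a required overlap of 50 bp, STE2 had a start peak in 1 library. A further peak of 122 tags lay inside the STE2 gene body in synHPRT1 YAC replicate 1, from 575 bp downstream of the start codon.

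BAR1 (YIL015W, chrIX:322342-324105, plus strand) encodes the secreted protease that degrades alpha-factor, and no start peak was listed for it in any library. The nearest upstream peaks on its strand ended 715 to 652 bp before its start codon in all 8 libraries and held 561 to 2087 tags. In a list whose weakest peak held 61 to 75 tags, a start below that level is not detectable. BAR1 is the member whose core has an alpha2 site on both sides, and a link between those sites and the missing start peak was not tested.

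ASG7 (YJL170C, chrX:101150-101779, minus strand) encodes an inhibitor of pheromone signalling that acts after cells fuse. Its pileup was 233 tags in synHPRT1R YAC replicate 2, 114 and 244 in synHPRT1R integrated, 241 in synHPRT1 YAC replicate 1, and 112 and 474 in synHPRT1 integrated libraries. No start peak was listed in synHPRT1R YAC replicate 1 or synHPRT1 YAC replicate 2. The values of 114 and 112 tags stood just above the weakest listed peak of their lists, 108 tags in each. Summits of ASG7 kept within 78 to 90 bp downstream of the start codon, and upstream edges within 21 to 11 bp upstream of it.

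**Figure D3:**
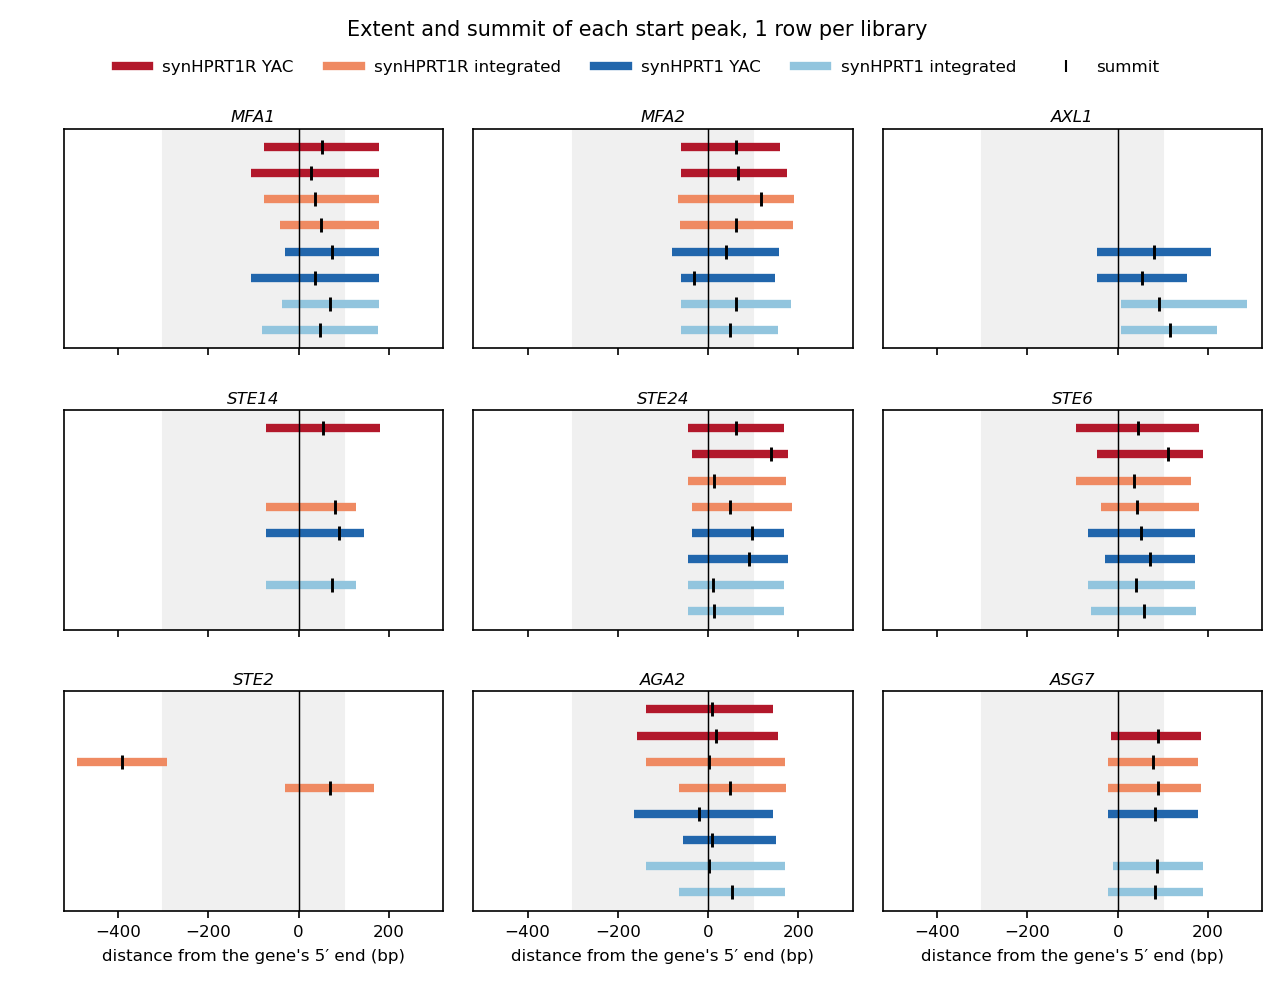
Extent (bar) and summit (black tick) of each start peak relative to the start codon (x axis, bp), with 1 row per library, for the 9 genes that have one. The grey band is the window of 300 bp upstream to 100 bp downstream. STE24 summits lie at 62 to 140 bp in YAC and at 11 to 48 bp in integrated libraries, while its bars begin at the same place, and the bars of AGA2 begin in 2 places.

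Peaks in all lists were at least 200 bp wide, and 36.5% to 48.3% of them had that width, so a summit or edge locates a start only coarsely. Over the 1239 genes the median summit was 63 bp downstream and the median upstream edge 55 bp upstream of the gene's 5′ end. Median summits of the members present in all 8 libraries were 49 bp (MFA1), 62 bp (MFA2), 55 bp (STE24), 48 bp (STE6) and 9 bp (AGA2). Over the 8 libraries the summit of MFA2 ranged over 147 bp and that of STE24 over 129 bp, against a median range of 52 bp for the 1239 genes. MFA1 ranged over 47 bp, STE6 over 76 bp and AGA2 over 73 bp.

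In limma, no member passed an adjusted p of 0.05 in any of the 4 tests of position and width. Between YAC and integrated libraries 0% of the 1239 genes passed for the summit and 0.0807% for the width, the 1 gene being SAC1. Between synHPRT1R and synHPRT1 libraries 0.0807% passed for the summit, the 1 gene being AIM4, and 0% for the width. SAC1 and AIM4 are named because they were called, after their values were seen. At an unadjusted p under 0.05 the numbers were 84 and 53 between contexts and 47 and 41 between sequences, for summit and width in turn. The summit of MFA2 averaged 76.8 ± 26.3 bp in synHPRT1R and 29.8 ± 41.6 bp in synHPRT1 libraries (SD, n = 4 each), a difference of 47.0 ± 18.7 bp (SE) with an adjusted p of 0.903 in limma. Without synHPRT1 YAC replicate 2, whose summit was the only one upstream of the start codon at −31 bp, the difference was 30.3 ± 14.1 bp (SE), with an adjusted p of 0.911. Summits did not overlap between the sequences in 1.37% of the genes, and in no member. Width differences of the 5 members were between −0.10 and 0.12 on the log2 scale in both comparisons.

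Genes that work with the members were described from lists of the pathway. Among the CAAX processing partners, RAM2, a farnesyltransferase subunit, had a start peak in 7 libraries, STE23, a protease related to Axl1, in 3, RAM1, the other transferase subunit, in 1, and RCE1, a CAAX protease, in 0. AGA1, which anchors Aga2 to the wall, had one in 1 library with 223 tags. The 4 CAAX processing partners together had 11 of 32 possible start peaks (34.4%), against 41.0% over all genes.

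Genes of the opposite mating type were rarely listed. Of the 4 alpha-specific genes, STE3, SAG1 and MF(ALPHA)2 had no start peak in any library, and MF(ALPHA)1, an alpha-factor gene, had 1 of 220 tags in synHPRT1R integrated replicate 2. The 4 alpha-specific genes thus had 1 of 32 possible start peaks (3.1%), against 41.0% over all genes. The 7 a-specific markers had 40 of 56, but all are members, and their presence was known when the members were chosen. Of the 7 haploid markers, STE5, the scaffold of the kinase cascade, and RME1, a repressor of meiosis, were listed in all 8 libraries. That is 28.6% of these markers, against 20.6% of all genes. Among the other haploid markers, GPA1 and FUS3 were listed in 7 libraries, STE4 in 6, AXL1 in 4 and STE18 in 0. Of 6 meiosis genes, SPO11 was listed in 1 library with 111 tags and the others in none. That is 1 of 48 possible start peaks (2.1%), against 41.0% over all genes. KEX1, STE13 and KEX2 process alpha-factor and were not counted among the alpha-specific genes. KEX1 and STE13 were each listed in 1 library and KEX2 in 0, which is 2 of 24 possible start peaks (8.3%).

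Pheromone signalling genes were listed about as often as genes in general. Their start peaks filled 54 of 120 gene and library combinations (45.0%), against 41.0% over all protein-coding genes. Of 15, STE5 and STE50 had start peaks in all 8 libraries (20.6% of all genes did), 7 genes in 3 to 7 libraries and 6 in none (33.8% of all genes). GPA1, the G protein alpha subunit, was listed in 7 libraries, STE4, the beta subunit, in 6 and STE18, the gamma subunit, in 0. The kinase FUS3 was listed in 7 libraries and KSS1 in 0. STE12, STE11, SST2 and FAR1 were listed in none. Of 8 pheromone-induced targets, MSG5, a phosphatase, was listed in 2 libraries, and FUS1, FUS2, FIG1, FIG2, PRM1, KAR4 and CIK1 in none. The targets together had 2 of 64 possible start peaks (3.1%), against 41.0% over all genes. Those in none made up 87.5% of the targets, against 33.8% of all genes. The cultures were of a single mating type, and a link between that and these counts was not tested. Of the regulators, MCM1 was listed in 3 libraries, TUP1 in 2 and CYC8 in 4. CYC8 was listed in all 4 integrated libraries, with 218 to 353 tags, and in 0 YAC libraries. Of all 6002 genes, 5 had this presence, CYC8 among them. The regulators together had 9 of 72 possible start peaks (12.5%), against 41.0% over all genes. HO and the 5 genes of the mating-type loci were listed in none, and 33.8% of all genes were in none. Reads from the silent and active mating-type loci share sequence, so their counts are uncertain.

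**Figure D4:**
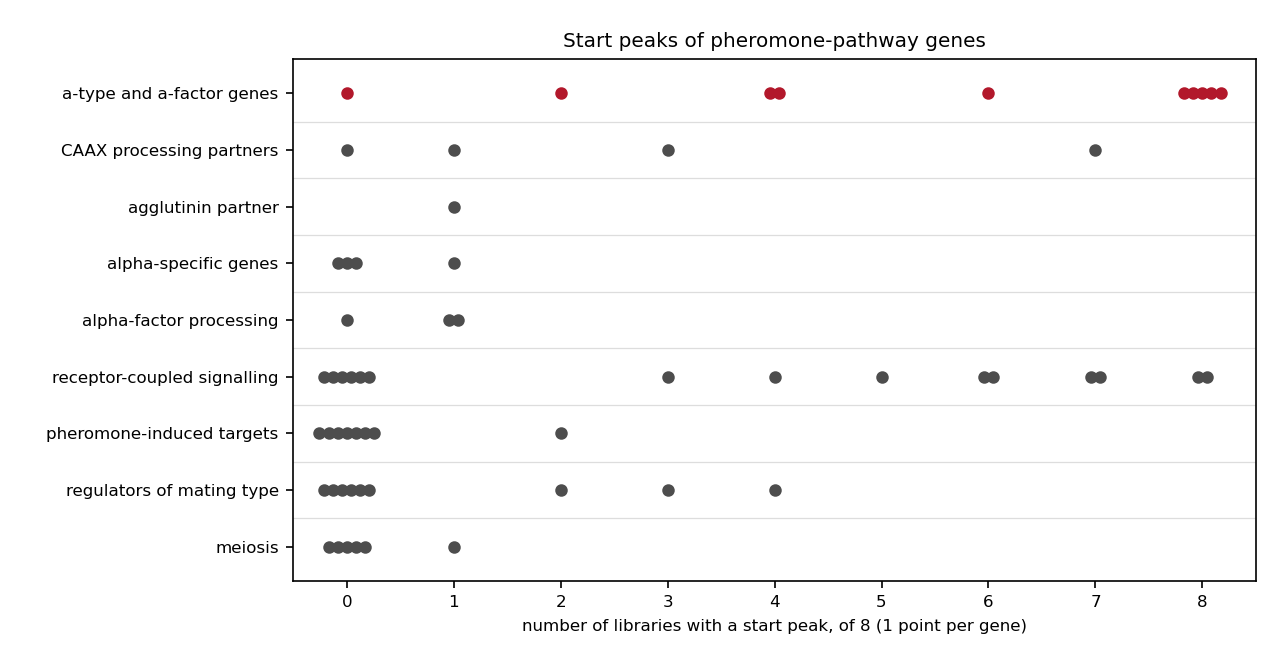
Number of the 8 libraries with a start peak (x axis) for each gene, with 1 point per gene and 1 row per list. The 10 a-type and a-factor genes, in red, were chosen with their presence known and include 5 at 8 libraries. Of all genes, 20.6% are at 8 libraries and 33.8% at 0. At 0 are 3 of 4 alpha-specific genes and 7 of 8 pheromone-induced targets.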

How the data were processed

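CAGE peaks were read from the 16 strand-specific lists of 8 libraries that the authors deposited against a reference with the synthetic sequence as its own contig. A further 16, with the sequence inside chromosome XI, served as an alternative. The submitters' processing notes name MACS2 2.1.0, Bowtie2 2.2.9 and, besides these, SAMtools 1.9, bcl2fastq 2.20 and deepTools 3.5.0, and the build sacCer3. Not given in the sources used here are the role of each tool, the extension of tags and the filters on reads. Each list holds 1 library. The deposited fold is a ratio, signal at the summit over background. Deposited −log10 values of p and q, a p-value and its adjusted q-value, stand beside it. These values are the authors', belong to the peak and were used inside a list, for ranking, filtering and solving the pileup.

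Summit pileup and local background were solved from fold and −log10 p under a Poisson model. Pileups came out whole within 0.1 for 97.7% to 99.5% of peaks of a list. Library preparation began with 5 µg of RNA and ended with 20 cycles of PCR, and no molecular identifiers are mentioned, so tags need not be independent molecules. Forward lists were read as the plus strand, which gave 2393 to 2665 genes with a start peak per library, against 590 to 666 with strands exchanged. Genes were the protein-coding nuclear genes of RefSeq. Genes with a start peak in all libraries (1239) entered limma 3.58.1 in R 4.3.3, with robust variance estimation and terms for context and sequence, separately for summit distance in bp and log2 width. P-values were adjusted by Benjamini-Hochberg over all of them, with a threshold of 0.05. Other steps used Python 3.11.15. The limma and pileup code was checked on simulated data.

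The members, the pathway lists and the motifs were chosen with earlier results of these data known. The text names the 10 members, list genes present in all libraries or split by group, genes sharing a member's presence where 5 or fewer, and the other list genes by role. The lists were CAAX processing partners, agglutinin partner, alpha-specific genes, alpha-factor processing, receptor-coupled signalling, pheromone-induced targets, regulators of mating type, and markers of mating type a, haploid cells and meiosis. Every list symbol had a match in RefSeq. Alternatives were a stricter q threshold, list lengths, window, overlap, reference, choice of peak, ranking value, a replicate block, an exact permutation test and each library left out in turn. No peak had the same interval and fold in 2 libraries.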

Additional observations from a re-analysis of the deposited data

Results flagged for a closer look

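Among 70 sets of 4 libraries, 5 had 1 library far from the other 3 by Dixon's criterion at 95%, where chance gives about 1 in 20. Each library enters sets by context and by sequence, so the sets are not independent. The summit of MFA2 lay 116 bp downstream of the start codon in synHPRT1R integrated replicate 1, against 62, 62 and 67 bp in the other synHPRT1R libraries. The summit of STE24 lay at 48 bp in synHPRT1R integrated replicate 2, against 11, 12 and 13 bp in the other integrated libraries. The summit of STE6 lay at 111 bp in synHPRT1R YAC replicate 2, against 35, 42 and 44 bp in the other synHPRT1R libraries. The STE6 peak was 200 bp wide in synHPRT1 YAC replicate 2, the narrowest width in any list, against 233, 238 and 238 bp in the other synHPRT1 libraries. In YAC libraries, 8 members had a start peak in synHPRT1 YAC replicate 1, against 6 in each of the others. This is a count of presence with tied values, for which the criterion carries no weight, and it is given as a description.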

How the results depend on the processing

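The count of 5 members present in all libraries kept within 4 to 5 under the other settings, but was 2 (MFA1 and AGA2) when the summit had to lie inside the window, where all genes present in every library fell to 777 against 1239. Leaving out each library in turn gave 5, with 48 to 50 start peaks of members, differences in members per library of −1.5 to −0.83 (YAC minus integrated) and −0.92 to −0.25 (synHPRT1R minus synHPRT1). Of 195 values of single members under alternatives, 178 were labelled kept and 17 moved. Ranks and positions were judged against their SD over libraries, but counts of libraries by a ratio. A fall of ASG7 from 6 to 4 libraries under the stricter q threshold was thus labelled kept. Among the 17, STE2 fell to 1 library in 7, STE24 changed rank as given above, and upstream edges differ from summits by construction.

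No member was called in limma under any setting. The adjusted p for the STE24 summit between contexts ranged over 0.115 to 0.828. Correlations of deviations between same-numbered libraries were −0.22 to 0.11 for summits. These values cannot settle whether replicate numbers mark a shared batch, which the labels do not say. With a replicate block, calls were 0 for the summit and 0 for the width between contexts, and 1 for each between sequences. An exact permutation test called 0 in all 4 tests, but the smallest p it allows, 0.0286, leaves little room to pass the adjustment over 1239 genes, so its 0 says nothing about stability. With the other reference the width between contexts gave 0 calls, and with the summit inside the window the width between sequences gave 1. Leaving out 1 library gave 0 to 1 calls in each test, none of them members: without synHPRT1R integrated replicate 2, synHPRT1 YAC replicate 1 or synHPRT1 YAC replicate 2, 1 gene was called for the summit between contexts, where the full set gave 0. The causes were not tested. Unknown depth limits absence: a start under the weakest listed peak is not seen.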
